A study of Homo sapiens with 8 samples.

Results

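Heme breakdown and iron handling were followed through 10 genes in human foam cells that had received auranofin or vehicle. The genes were picked by symbol from the deposited count table, and all 10 were found among its 62700 rows. They encode the heme-degrading enzyme HMOX1, the biliverdin reductases BLVRA and BLVRB, the ferritin subunits FTH1 and FTL, the ferritin receptor NCOA4, the iron importers TFRC, SLC11A1 and SLC11A2, and the iron exporter SLC40A1. Ferritin pseudogenes were not members. All 10 genes had enough counts to be tested.

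Both groups were THP-1, a line from a human monocytic leukaemia, differentiated to macrophages by the phorbol ester PMA (50 ng/mL, 72 h). Acetylated low-density lipoprotein was added to turn them into foam cells. The 4 auranofin (AF) libraries came from cells given 0.5 µM auranofin, a gold-containing drug whose textbook target is thioredoxin reductase. The 4 DMSO libraries came from cells given the solvent alone at less than 0.1% by volume. The sample protocol places the drug 24 h before a 48 h lipid load and throughout it, whereas the design text of the series has the drug follow the load. Nothing in the labels says that libraries came from separate cultures, so p-values measure only how these libraries spread, and that spread may be technical.

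Heme oxygenase opens the heme ring and releases iron, carbon monoxide and biliverdin, which biliverdin reductase turns into bilirubin. The freed iron is stored in ferritin, a shell of heavy and light chains, or leaves the cell through ferroportin, the product of SLC40A1. Macrophages are known for this route because they take up and break down red cells. HMOX1 and the ferritin genes are textbook targets of the transcription factor NRF2, and BACH1, a repressor that heme displaces, is known to hold HMOX1 down. Ferritin, ferroportin and transferrin receptor messages are also known to be read by iron regulatory proteins.

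Total counts ran from 24522949 to 32325981 in AF libraries and from 19336073 to 27278947 in DMSO libraries. AF replicate 1 stood apart: rows of the ribosomal RNA repeats made up 34.8% of it, while AF replicates 2 to 4 had 0.812% to 0.855% and DMSO libraries 0.745% to 0.966%. Levels are given as CPM, which are counts scaled to a common library size with TMM composition factors, and that factor was 0.679 in AF replicate 1 and 1.045 to 1.078 in the others. As a check of the drug, NQO1, a quinone reductase gene and NRF2 target, averaged 187 ± 15.8 CPM in AF and 103 ± 3.42 CPM in DMSO (SD, n = 4 each; edgeR adjusted p = 1.16e-06), and TXNRD1, a thioredoxin reductase gene, 297 ± 22.3 CPM in AF and 225 ± 7.44 CPM in DMSO (adjusted p = 0.000771). All 8 macrophage markers were detected, with a summed level of 2830 to 3135 CPM in AF and 3388 to 3969 CPM in DMSO. Of these, CD14 and ITGAM were higher and LYZ, MRC1 and FCGR1A lower in AF, and their part in the results on heme and iron genes was not tested. The 5 foam cell markers summed to 2058 to 2263 CPM in AF and 2281 to 2532 CPM in DMSO, with PLIN2 and FABP4 lower in AF. In such bulk libraries fewer cells of a type and less RNA per cell cannot be told apart. Erythroid markers, of the cells that make most heme, reached at most 5 counts in any library. T cell markers summed to at most 0.213 CPM, B cell markers to 0.978, endothelial markers to 5.26 and fibroblast markers to 2.01, and epithelial markers had 0 counts.

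With auranofin HMOX1, FTH1, FTL, TFRC and SLC11A2 rose and SLC40A1 fell, while BLVRA, BLVRB, NCOA4 and SLC11A1 were not called (edgeR's quasi-likelihood test, Benjamini-Hochberg adjusted p under 0.05). So 5 of the 10 genes were higher and 1 was lower. Of all 17535 genes tested 15.4% were called, 7.62% higher and 7.81% lower. The 6 called genes were those whose 4 AF values did not overlap their 4 DMSO values, which was so for 19.5% of all genes tested. The median log2 fold change was 0.21 over the 10 genes and 0.005 over all genes tested. The same 6 calls were made by DESeq2, with the libraries that share a name stem summed, and without AF replicate 1. With 1 library left out at a time the 5 higher calls held, while SLC40A1 lost its call in 5 of these fits. Under library totals alone, a scaling into which ribosomal RNA enters, the median log2 fold change over all tested genes shifted by -0.15 and 1 of the 10 genes, SLC40A1, was called. With the same scaling and AF replicate 1 left out, 5 were higher and 1 lower again.

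**Figure D1:**
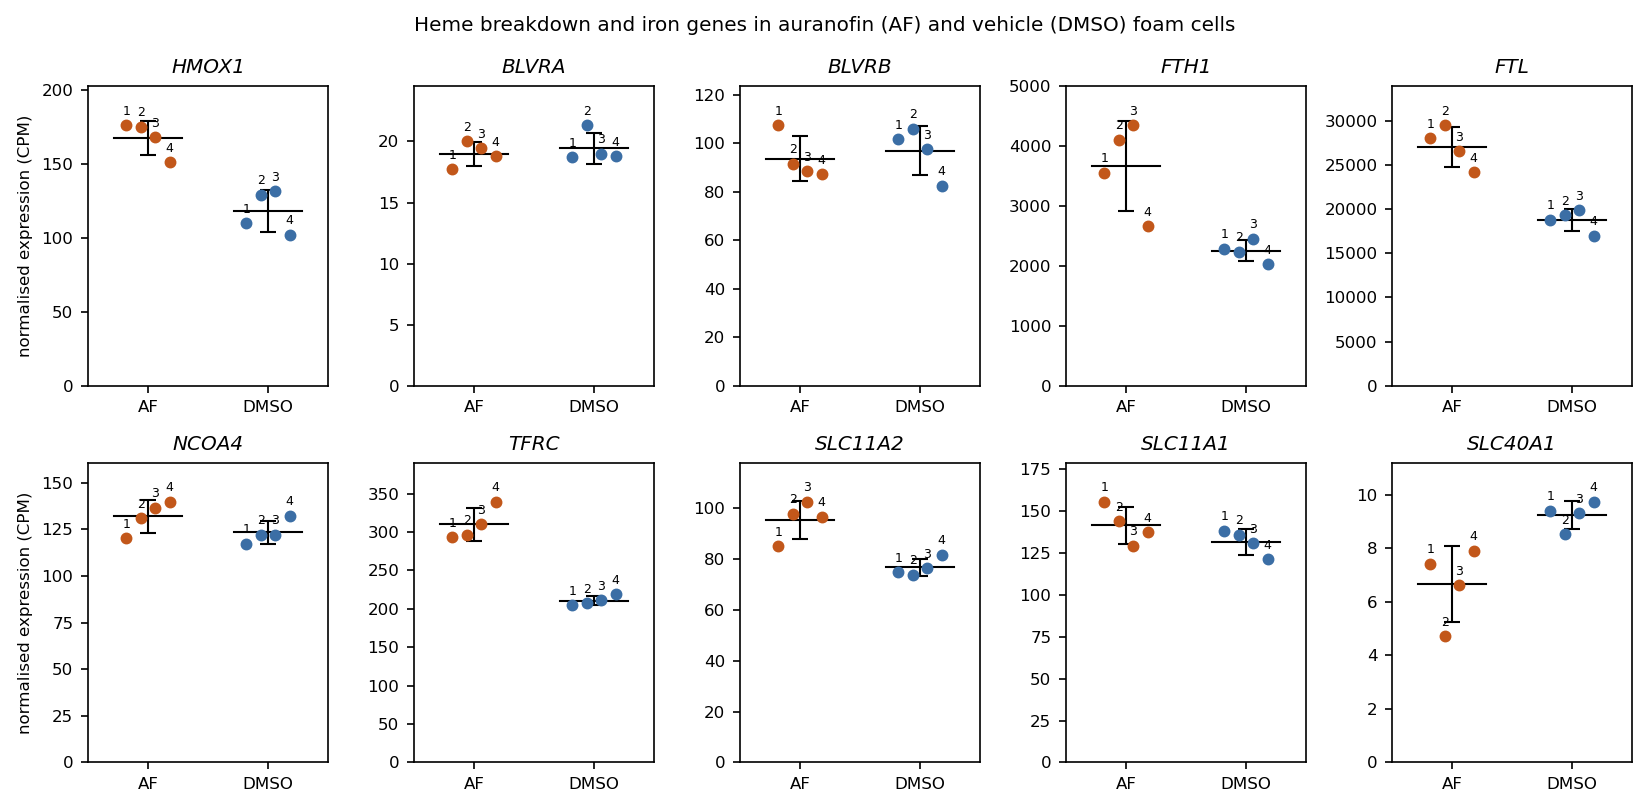
Normalised expression (CPM, linear axes from 0) of the 10 genes in the 4 AF and 4 DMSO libraries. Points are libraries with their replicate number, and the black lines give the mean and SD. HMOX1, FTH1, FTL, TFRC and SLC11A2 lie higher in every AF library than in any DMSO library, and SLC40A1 lies lower.

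HMOX1, the inducible enzyme that opens heme, reached 176, 175, 168 and 151 CPM in AF replicates 1 to 4 and 110.0, 129, 132 and 102 CPM in DMSO replicates 1 to 4. The groups did not overlap, and the spread within DMSO was somewhat wider than that within AF, with DMSO replicates 2 and 3 above 1 and 4. The means were 168 ± 11.6 CPM in AF and 118 ± 14.5 CPM in DMSO (SD, n = 4 each), a log2 fold change of 0.50 ± 0.08 (SE) or 1.42-fold (edgeR adjusted p = 0.000708). Leaving out any library gave log2 fold changes between 0.44 and 0.56, all called. The gene (ENSG00000100292.16) spans chromosome 22 from 35380361 to 35394214 on GRCh38, and counts are summed over the exons of the whole gene. HMOX2, the constitutive heme oxygenase, was not called, with 25.0 ± 2.67 CPM in AF and 24.4 ± 2.06 CPM in DMSO (edgeR adjusted p = 0.884).

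The biliverdin reductases, which act after heme oxygenase, did not pass the test. BLVRA, which reduces the main isomer of biliverdin in adults, had 17.7, 20.0, 19.4 and 18.8 CPM in AF replicates 1 to 4 and 18.7, 21.3, 18.98 and 18.8 CPM in DMSO replicates 1 to 4. BLVRB, which reduces flavins and other biliverdin isomers, had 107, 91.6, 88.4 and 87.2 CPM in AF and 102, 106, 97.5 and 82.5 CPM in DMSO. The groups overlapped for both genes, with AF replicate 1 below every DMSO library for BLVRA and above every DMSO library for BLVRB. The log2 fold change of BLVRA was -0.033 with a 95% interval from -0.23 to 0.16 (edgeR adjusted p = 0.845), and that of BLVRB was -0.052 with an interval from -0.23 to 0.12 (adjusted p = 0.718). Both intervals lie below the HMOX1 value of 0.50. The count ratio of BLVRA to BLVRB was 0.165, 0.218, 0.220 and 0.216 in AF and 0.184, 0.201, 0.195 and 0.228 in DMSO, a difference of 0.015 on the log2 scale (two-sided exact permutation test, p = 0.943, and 0.943 adjusted over the 4 ratios computed here).

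Both ferritin genes rose. FTL, the light chain that helps iron crystallise in the shell, had 27988, 29487, 26564 and 24172 CPM in AF replicates 1 to 4 and 18812, 19270, 19891 and 16988 CPM in DMSO replicates 1 to 4. The lowest AF library stood above the highest DMSO library. The means were 27053 ± 2261 CPM in AF and 18740.4 ± 1249 CPM in DMSO (SD, n = 4 each), a log2 fold change of 0.53 ± 0.09 (SE) or 1.44-fold (edgeR adjusted p = 0.0014). FTL (ENSG00000087086.14) lies on chromosome 19 from 48965301 to 48966878. Per kilobase of exon FTL was the highest of the genes, at 30812 ± 2576 CPM per kb in AF and 21344 ± 1423 CPM per kb in DMSO. FTH1 followed at 1808 ± 369.5 CPM per kb in AF and 1111 ± 85.9 CPM per kb in DMSO. This FTH1 level leaves out reads counted to its pseudogene rows, which are given below. It also depends on the length used. Per kilobase of the longest transcript the DMSO means were 1835 CPM for FTH1 and 21344 CPM for FTL.

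FTH1, the heavy chain that oxidises iron on its way in, had 3556, 4109, 4352 and 2661 CPM in AF replicates 1 to 4 and 2292, 2238, 2455 and 2033 CPM in DMSO replicates 1 to 4. AF replicate 4 lay close to the highest DMSO library, and the other AF libraries lay well above it. The means were 3669 ± 750.1 CPM in AF and 2255 ± 174 CPM in DMSO (SD, n = 4 each), a log2 fold change of 0.70 ± 0.13 (SE) or 1.63-fold (edgeR adjusted p = 0.00185). Without AF replicate 4 the log2 fold change was 0.83. FTH1 (ENSG00000167996.15) lies on chromosome 11 from 61959718 to 61967660, and 62.4% of its exon bases are overlapped by BEST1 on the other strand. BEST1 had 457 to 838 counts in AF and 410 to 650 in DMSO, against 67007 to 138578 FTH1 counts in AF and 42312 to 66997 in DMSO, and the strand setting of the counting is not given in the sources used here.

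FTH1 has many pseudogenes, and reads of near-identical copies cannot be assigned with certainty. The table holds 25 FTH1 pseudogene rows, of which 15 were tested and 13 rose. Their summed level was 2163, 2738, 2795 and 2893 CPM in AF replicates 1 to 4 and 1264, 1222, 1273 and 1256 CPM in DMSO replicates 1 to 4. In AF replicate 4 these rows held 109% as many counts as FTH1 itself, while AF replicates 1 to 3 had 60.8% to 66.6% and DMSO libraries 51.8% to 61.8%. So the library that was lowest for FTH1 in AF was the highest for its pseudogene rows. With the pseudogene counts added, FTH1 stood at 5719, 6847, 7147 and 5554 CPM in AF and 3556, 3461, 3728 and 3289 CPM in DMSO, and its log2 fold change was 0.85 (edgeR adjusted p = 5.6e-05). FTL was little touched: its 16 pseudogene rows held 1.94% to 2.36% as many counts as FTL in AF and 2.01% to 2.13% in DMSO, and its log2 fold change stayed at 0.53 with them added.

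**Figure D2:**
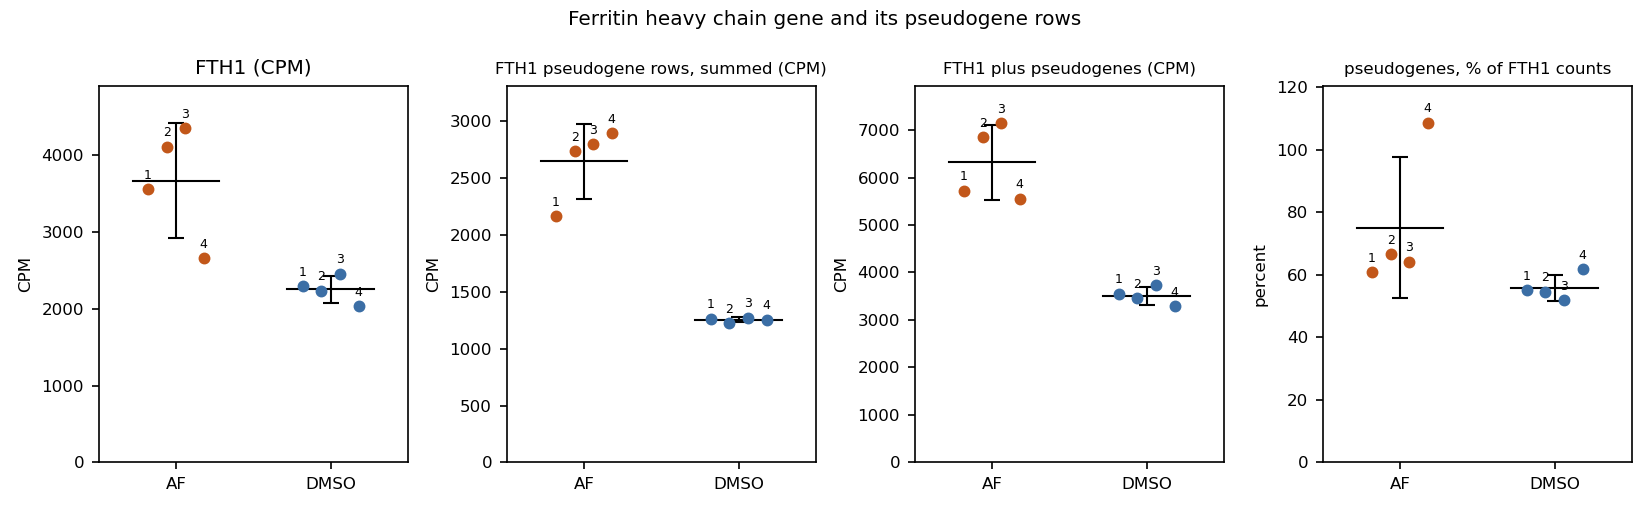
FTH1, the sum of its pseudogene rows, the sum of both (CPM) and the pseudogene counts as a percent of FTH1 counts, in the AF and DMSO libraries. Points are libraries with their replicate number, black lines are mean and SD, and axes start at 0. AF replicate 4 is the lowest AF library for FTH1 and the highest for the pseudogene rows, with 109% as many pseudogene as FTH1 counts.

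Counted without pseudogene rows, the balance of the ferritin chains varied more among AF libraries than between the groups. The count ratio of FTH1 to FTL was 0.127, 0.139, 0.164 and 0.110 in AF replicates 1 to 4 and 0.122, 0.116, 0.123 and 0.120 in DMSO replicates 1 to 4. The mean difference was 0.15 on the log2 scale (two-sided exact permutation test, p = 0.286, adjusted p = 0.381). AF replicate 4 lay below every DMSO library and the other AF libraries above. With the pseudogene counts added to each gene the difference was 0.31 (exact permutation test, adjusted p = 0.0571). Every AF library, replicate 4 included, then lay above every DMSO library.

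NCOA4, the receptor that carries ferritin to lysosomes so that its iron is set free, did not pass the test. It had 120.2, 131, 137 and 139.9 CPM in AF replicates 1 to 4 and 117, 122, 122 and 132 CPM in DMSO replicates 1 to 4. The groups overlapped, and replicate 4 was the highest library of each. The log2 fold change was 0.097 ± 0.060 (SE), with a 95% interval from -0.03 to 0.22 (edgeR adjusted p = 0.298), and -0.042 under library totals alone. Of 6 tested genes of iron sensing 1 was called, against 15.4% of all genes tested. It was HERC2, which encodes a ubiquitin ligase known to promote the turnover of NCOA4. HERC2 fell to 111 ± 6.18 CPM in AF, against 136 ± 3.77 CPM in DMSO (log2 fold change -0.30 ± 0.05, edgeR adjusted p = 0.00215). A link between HERC2 and NCOA4 was not tested.

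TFRC, the transferrin receptor that brings iron into the cell, showed the smallest p of the 10 genes. It had 294, 296, 310.4 and 339.7 CPM in AF replicates 1 to 4 and 205, 207, 211 and 219 CPM in DMSO replicates 1 to 4. The gap between the lowest AF and the highest DMSO library was wider than the whole range within either group. The means were 310.0 ± 21.1 CPM in AF and 211 ± 6.27 CPM in DMSO (SD, n = 4 each), a log2 fold change of 0.56 ± 0.06 (SE) or 1.47-fold (edgeR adjusted p = 4e-05). TFRC (ENSG00000072274.12) lies on chromosome 3 from 196027183 to 196082189.

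SLC11A2, also called DMT1, moves ferrous iron out of endosomes after uptake through the transferrin receptor, and it rose. It had 85.0, 97.9, 103 and 96.6 CPM in AF replicates 1 to 4 and 74.8, 73.8, 76.5 and 81.7 CPM in DMSO replicates 1 to 4. AF replicate 1 was the lowest AF library and lay just above the highest DMSO library. The means were 95.5 ± 7.47 CPM in AF and 76.7 ± 3.52 CPM in DMSO (SD, n = 4 each), a log2 fold change of 0.32 ± 0.06 (SE) or 1.247-fold (edgeR adjusted p = 0.00363).

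SLC11A1, also called NRAMP1, is the related metal transporter of the macrophage phagosome, and it did not pass. It had 156, 144, 129 and 137 CPM in AF replicates 1 to 4 and 138, 136, 131 and 121 CPM in DMSO replicates 1 to 4. The groups overlapped, with AF replicate 3 below DMSO replicates 1, 2 and 3. The log2 fold change was 0.10, with a 95% interval from -0.03 to 0.24 (edgeR adjusted p = 0.294), and -0.059 under library totals alone. The count ratio of SLC11A1 to SLC11A2 was 1.83, 1.47, 1.26 and 1.42 in AF and 1.85, 1.84, 1.71 and 1.48 in DMSO, a difference of -0.21 on the log2 scale (exact permutation test, p = 0.143, adjusted p = 0.286).

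SLC40A1, ferroportin, is the known iron exporter of human cells and had the lowest level of the 10 genes per kilobase of exon, 1.54 ± 0.325 CPM per kb in AF and 2.14 ± 0.119 CPM per kb in DMSO. It had 7.43, 4.71, 6.63 and 7.92 CPM in AF replicates 1 to 4 and 9.41, 8.54, 9.32 and 9.75 CPM in DMSO replicates 1 to 4. The groups did not overlap, and AF replicate 2 lay well below the other AF libraries. The means were 6.67 ± 1.41 CPM in AF and 9.25 ± 0.514 CPM in DMSO (SD, n = 4 each), a log2 fold change of -0.48 ± 0.14 (SE) or 0.716-fold (edgeR adjusted p = 0.0297). The call depended on single libraries: it was lost without AF replicate 2 (log2 fold change -0.34, adjusted p = 0.0655), AF replicate 3 (adjusted p = 0.0744), DMSO replicate 1 (0.0687), DMSO replicate 3 (0.0697) or DMSO replicate 4 (0.0617). SLC40A1 (ENSG00000138449.10) lies on chromosome 2 from 189560579 to 189583758, and its counts were 140 to 204 in AF and 203 to 275 in DMSO.

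Import and export genes can be set against each other within each library, which takes out any scaling between libraries. The count ratio of TFRC to SLC40A1 was 39.5, 62.9, 46.8 and 42.9 in AF replicates 1 to 4 and 21.8, 24.3, 22.6 and 22.5 in DMSO replicates 1 to 4. Every AF library lay above every DMSO library, and the DMSO libraries lay close together. The mean ratio was 2.07-fold higher in AF, a difference of 1.05 on the log2 scale (two-sided exact permutation test, p = 0.0286, the smallest that 4 against 4 libraries allow). Adjusted over the 4 ratios, the exact permutation p was 0.114 and did not pass. The library names have the stems A13 and A14 in AF and A4 and A5 in DMSO. With libraries that share a stem summed, the difference was 1.09 (exact permutation test, adjusted p = 0.444). For such sums the smallest unadjusted p possible is 0.333. Without single libraries the difference was between 0.91 and 1.14.

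**Figure D3:**
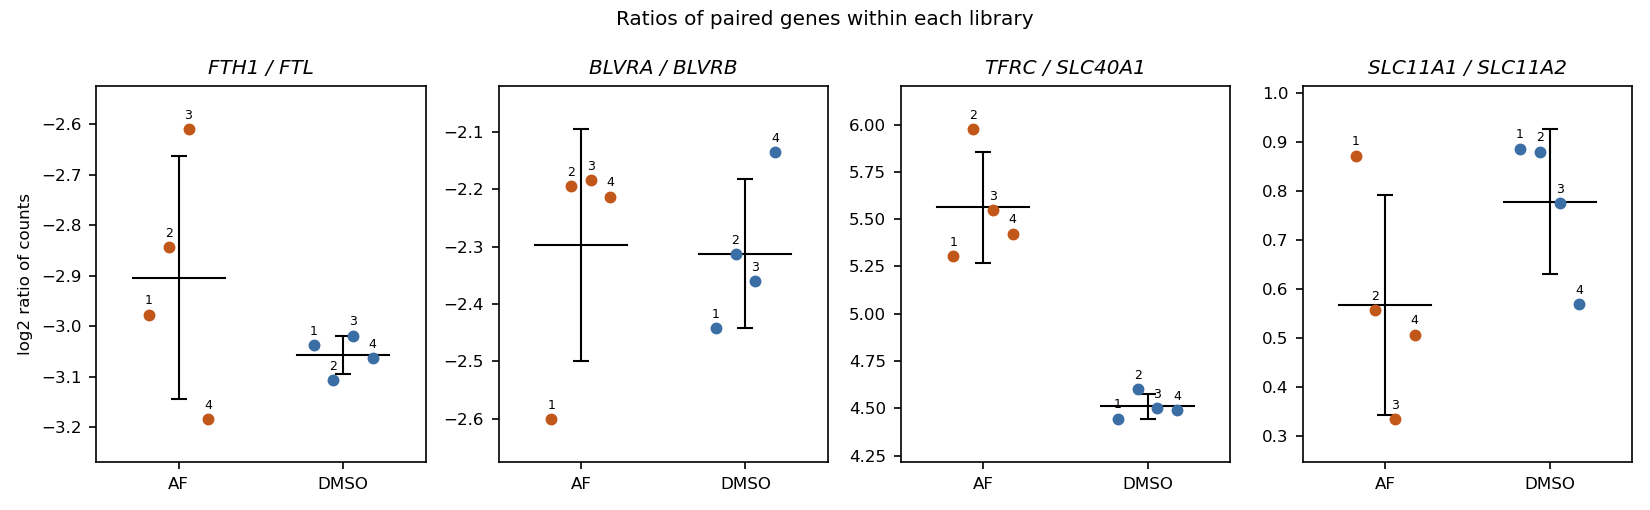
Log2 ratio of the counts of 2 genes within each library, for FTH1 over FTL, BLVRA over BLVRB, TFRC over SLC40A1 and SLC11A1 over SLC11A2, in AF and DMSO libraries. Points are libraries with their replicate number, and black lines are mean and SD. Of these ratios, taken without pseudogene rows, only for TFRC over SLC40A1 do the groups not overlap, with a difference of 1.05.

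**Figure D4:**
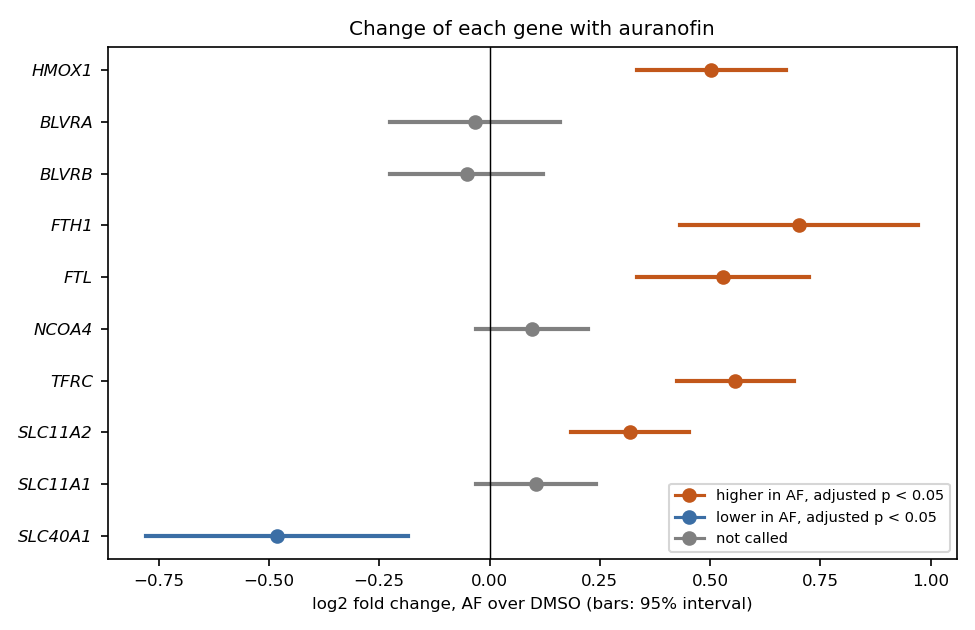
Log2 fold change of each of the 10 genes, AF over DMSO, with its 95% interval from edgeR, coloured by call. FTH1 is at 0.70, TFRC, FTL and HMOX1 are between 0.50 and 0.56, SLC11A2 is at 0.32 and SLC40A1 is at -0.48.

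Several of these messages carry iron-responsive elements, short hairpins known to be bound by iron regulatory proteins when iron is scarce. In a 5′ UTR they are known to block translation, and in the 3′ UTR of TFRC to protect the message from decay. They are shown because FTL and TFRC rose and SLC40A1 fell while all carry the element. The longest protein-coding GENCODE 29 transcript of each gene was searched on its sense strand for a C, 5 further bases and the loop CAGTGN, where those 5 bases pair with the 5 bases after the loop (G:T pairs allowed). TFRC had 4 matches, FTH1, FTL and SLC40A1 had 1 each, and SLC11A2 had 0. Hairpins of another form and other transcripts were not searched. So a gene can carry elements that this search does not count. Of 19702 protein-coding genes 1.31% had a match, and TFRC was the 1 gene with 4 or more. The elements of FTL, SLC40A1 and TFRC follow 5′ to 3′, and that of FTH1 is not printed here. They are written on the gene's strand, with the CAGTGN loop in capitals.
FTL, 5′ UTR, chr19:48965334-48965363, plus strand: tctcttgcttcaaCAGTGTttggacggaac
SLC40A1, 5′ UTR, chr2:189580661-189580690, minus strand: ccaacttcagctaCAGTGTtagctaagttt
TFRC, 3′ UTR, chr3:196050979-196051008, minus strand: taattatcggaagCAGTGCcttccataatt
TFRC, 3′ UTR, chr3:196050575-196050604, minus strand: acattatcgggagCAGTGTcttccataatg
TFRC, 3′ UTR, chr3:196050510-196050539, minus strand: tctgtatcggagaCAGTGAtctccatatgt
TFRC, 3′ UTR, chr3:196050463-196050492, minus strand: taattatcgggaaCAGTGTttcccataatt

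A match is a description of the letters, and these libraries measure message levels, not translation. The genes of the iron regulatory proteins were not called: ACO1 had 41.6 ± 2.76 CPM in AF and 38.0 ± 1.249 CPM in DMSO (edgeR adjusted p = 0.253), and IREB2 had 117 ± 11.7 CPM in AF and 117 ± 8.70 CPM in DMSO (adjusted p = 0.975). FBXL5, whose product is known to degrade IREB2 when iron is plentiful, was not called either (log2 fold change 0.15, adjusted p = 0.248). For NRF2, the core TGACNNNGC was searched on both strands in RefSeq promoter windows (250 bases before to 50 after the start, GRCh38.p14), which hold 8 of the 10 genes. HMOX1 and FTH1 had no window. NCOA4 had a match and BLVRA, BLVRB, FTL, SLC40A1, TFRC, SLC11A1 and SLC11A2 had none. Sequence further from the start was not searched, so the lack of a match cannot show that a gene lacks such an element. Of 27305 genes with a window 16.1% had a match.

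The gene whose pattern over the 8 libraries was most like that of HMOX1 was FTL. Likeness was the root mean square difference of log2 CPM after centring each gene on its DMSO mean, over 11226 genes averaging 5 CPM or more. It was 0.067 for FTL, 0.069 for ITPKC, 0.078 for ITGAM, 0.083 for SCAT1 and 0.088 for TKT. HMOX1 and FTL shared their order within DMSO, where replicate 3 was the highest and replicate 4 the lowest, and in both replicate 4 was the lowest AF library. FTH1 and ITGAM had the same highest and lowest DMSO libraries and the same lowest AF library. The highest AF library was replicate 1 for HMOX1 and replicate 2 for FTL. With the largest difference in any library as the measure, 4 of the 5 genes were named again.

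The wider set of heme and iron genes held calls in both directions. Of 62 other genes in 6 lists, 52 were tested, 9 rose and 5 fell (edgeR, adjusted p under 0.05), against 15.4% of all genes called. Of all genes tested 7.62% were higher and 7.81% lower, and these shares are to be set beside the count of each list. The median log2 fold change of the 52 genes was 0.005, and that of all genes tested was 0.005. Without AF replicate 3 the count was 6 higher and 2 lower, without DMSO replicate 3 it was 6 and 3, and under library totals alone 1 and 1. The 10 untested genes had at most 19 counts in any library, among them HAMP (hepcidin) and CP (ceruloplasmin).

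Of 8 heme synthesis genes 1 rose and 1 fell. ALAS1, the rate-limiting first enzyme, had 92.4, 145, 137 and 87.5 CPM in AF replicates 1 to 4 and 65.1, 74.5, 77.9 and 68.7 CPM in DMSO replicates 1 to 4. AF replicates 2 and 3 stood above 1 and 4, and all stood above DMSO (log2 fold change 0.70 ± 0.14, edgeR adjusted p = 0.00315). UROS, the uroporphyrinogen synthase gene, fell to 12.9 ± 0.881 CPM in AF, against 17.01 ± 2.22 CPM in DMSO (adjusted p = 0.0167), a call lost without AF replicate 3 (0.0546) or DMSO replicate 3 (0.0504). FECH, which puts iron into the ring, had 37.8 ± 2.40 CPM in AF and 38.2 ± 2.06 CPM in DMSO (adjusted p = 0.930).

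Of 9 genes in the list of heme carriers, which includes HMOX2, SLC48A1 was the 1 called. It encodes HRG1, which moves heme out of the phagolysosome, and had 31.5, 36.4, 32.6 and 26.1 CPM in AF replicates 1 to 4 and 20.1, 23.2, 22.5 and 24.9 CPM in DMSO replicates 1 to 4. AF replicate 4 lay just above the highest DMSO library (log2 fold change 0.48 ± 0.11, edgeR adjusted p = 0.00892). Of 8 tested genes of iron uptake and iron chaperones 2 rose and 1 fell. The poly(C)-binding protein gene PCBP2 rose (log2 fold change 0.21 ± 0.05, adjusted p = 0.0158) and its relative PCBP1, which delivers iron to ferritin, did not pass (0.005, adjusted p = 0.970). The ferric reductase gene CYBRD1 rose (0.32 ± 0.10, adjusted p = 0.0341). STEAP3, the endosomal ferric reductase that works with TFRC and SLC11A2, fell to 51.5 ± 2.50 CPM in AF, against 61.3 ± 3.85 CPM in DMSO (-0.25 ± 0.06, adjusted p = 0.0144). SLC39A14, an importer of free iron and zinc, did not pass (log2 fold change 0.09, adjusted p = 0.263). The calls of STEAP3, PCBP2 and CYBRD1 were each lost without AF replicate 3 (0.0757, 0.0669 and 0.0913) and other single libraries. Those of PCBP2 and CYBRD1 were also lost with libraries that share a name stem summed (edgeR adjusted p = 0.0538 and 0.0958).

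Of 15 tested genes of mitochondrial iron and iron-sulfur clusters 1 rose and 2 fell. The mitochondrial iron importer gene SLC25A37 rose (log2 fold change 0.26 ± 0.08, edgeR adjusted p = 0.0337). The iron-sulfur assembly gene IBA57 fell (-0.40 ± 0.10, adjusted p = 0.0119). The call of SLC25A37 was lost without AF replicate 2 (adjusted p = 0.120), AF replicate 3 (0.141) or any of the DMSO replicates 1 to 4 (0.127, 0.0624, 0.0808 and 0.0853), and with upper-quartile factors (0.0505). Of 6 genes that regulate HMOX1, 4 rose, against 7.62% of all genes tested. The 4 were NFE2L2, which encodes NRF2 (0.35 ± 0.07, adjusted p = 0.00269), the repressor gene BACH1 (0.36 ± 0.06, adjusted p = 0.00145) and the small MAF partner genes MAFF (0.55 ± 0.09, adjusted p = 0.00139) and MAFK (0.49 ± 0.11, adjusted p = 0.00608). BACH1 stood at 122 ± 6.74 CPM in AF and 94.9 ± 7.08 CPM in DMSO. KEAP1 and MAFG were not called (edgeR adjusted p = 0.464 and 0.367). MAFK, KEAP1 and MAFG were named after their values were seen.

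**Figure D5:**
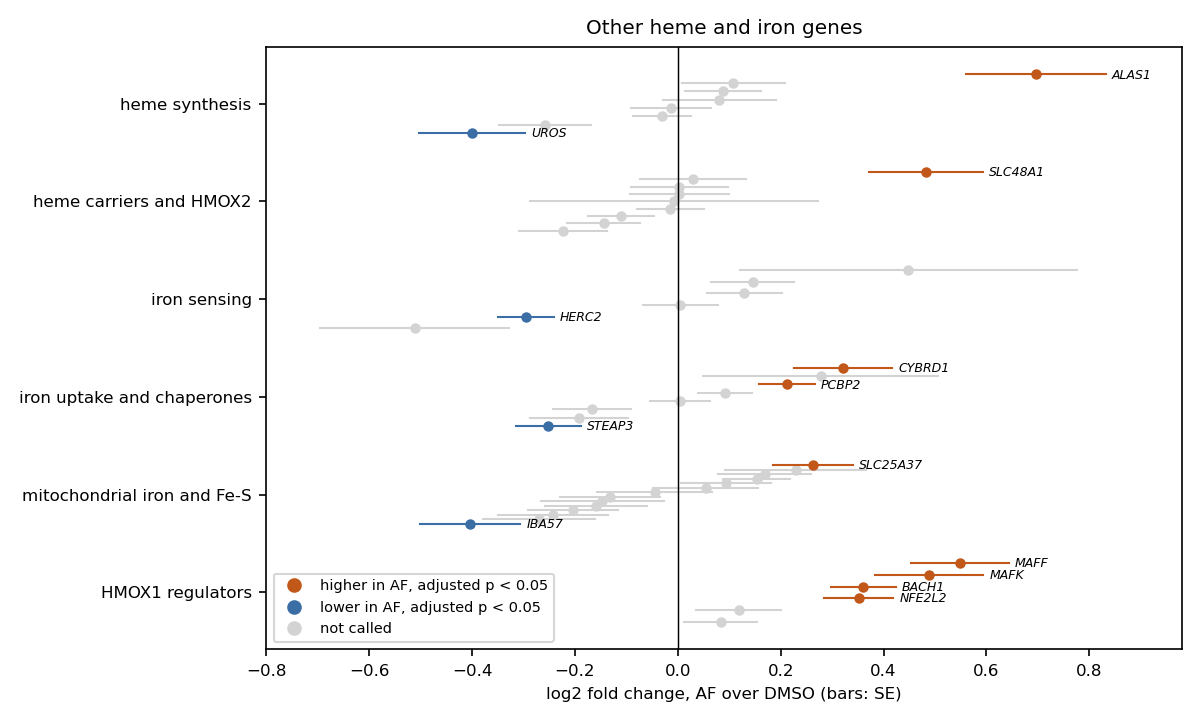
Log2 fold change, AF over DMSO, of the reported heme and iron genes outside the 10, by list, with the SE as bars. Called genes are coloured and named, with ALAS1 at 0.70 and SLC48A1 at 0.48 among the higher ones and STEAP3 at -0.25 among the lower ones.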

How the data were processed

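Stranded poly-A libraries began with 250 ng of RNA, per the labels' protocols. The authors deposited raw counts per gene as whole numbers without normalisation. STAR 2.6.1d, featureCounts, Subread 1.6.3 and GRCh38 are named per the submitters' processing notes, while the sources used here do not give the annotation, strand setting or treatment of multi-mapped reads. Columns were matched to samples by title, and all 8 libraries entered singly, since no 2 agreed within sampling noise (lowest chi-square per degree of freedom 2.93).

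The counts were fitted with edgeR 4.0.16 in R 4.3.3 (TMM, filterByExpr, glmQLFit and glmQLFTest, two-sided, no block, Benjamini-Hochberg over 17535 genes). SE is the log2 fold change divided by the square root of F, and intervals are 95%. The code was tested on simulated data. Ratios were tested by exact permutation over 70 assignments. DESeq2 1.42.0, other scalings and filters, blocks, sums and left-out libraries were alternatives. Positions, exon lengths and hairpin sequences came from GENCODE 29 and promoter windows from RefSeq, both GRCh38.

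The 10 genes and the lists were chosen with earlier results of these data known. Named besides the 10 are up to 3 called genes of each list with the smallest p, a set of heme and iron genes named whatever their result, the drug check genes and the 5 genes most like HMOX1. A gene of the mitochondrial list is included in counts over lists and is not reported here. Counts are not independent molecules, so errors cover the spread between libraries only.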

Additional observations from a re-analysis of the deposited data

Results flagged for a closer look

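Of 76 groups of 4 libraries examined for a lone library far from the other 3, 5 held one. Chance gives about 1 in 20. Ribosomal RNA repeats took 34.8% of counts in AF replicate 1, against 0.812% to 0.855% in the other AF libraries. FTH1 pseudogene rows held 108.7% as many counts as FTH1 in AF replicate 4, against 60.8% to 66.6% in the other AF libraries. The log2 ratio of BLVRA to BLVRB was -2.6 in AF replicate 1, against -2.21 to -2.18 in the others. UROS was at 11.6 CPM in AF replicate 3, against 13.2 to 13.4 in the other AF libraries. BLVRA was at 21.3 CPM in DMSO replicate 2, against 18.7 to 18.98 in the other DMSO libraries.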

How the results depend on the processing

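HMOX1, FTH1, FTL, TFRC and SLC11A2 stayed called and higher under each alternative tried except library totals alone. There their log2 fold changes were 0.35, 0.56, 0.38, 0.41 and 0.18, SLC11A1 turned to -0.059 and NCOA4 to -0.042, and 1 of the 10 genes, 2 of the 52 others and 883 genes in all (183 higher, 700 lower) were called. Without AF replicate 1 that scaling called 6, 16 and 2593, an alternative added after the data were seen. Leaving out 1 library at a time gave 5 to 6 calls among the 10, 8 to 15 among the 52 and 1616 to 2964 in all (1616 without DMSO replicate 2, 1648 without DMSO replicate 3, 1660 without AF replicate 3), and SLC40A1 ran from -0.58 to -0.34. BLVRA ran from -0.058 to 0.014, turning positive without DMSO replicate 2. The log2 ratio of BLVRA to BLVRB, 0.015 with all libraries, ran from -0.028 to 0.12, and was negative without 5 of the 8 libraries; the causes were not tested. Same-numbered libraries correlated by 0.03 to 0.19 in their deviations from group means, and differently numbered ones by -0.13 to 0.04. Replicates 1, 2 and 4 correlated best with their own number in the other group. Replicate 3 did not: AF replicate 3 correlated by 0.029 with DMSO replicate 3 and by 0.042 with DMSO replicate 2. These correlations cannot settle whether libraries were paired. The labels name no pairs, so the numbers were not taken as pairs. With a replicate block 4188 genes were called, with 6 of the 10 and 18 of the 52. With lengths of the longest transcript 6 of the 10 genes kept their rank per kilobase. Depth limits SLC40A1 most of the 10 genes, with 140 to 275 counts a library.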
